A study of Rattus norvegicus with 12 samples.

Results

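The circadian clock genes Arntl (the older symbol of Bmal1), Clock, Npas2, Per1, Per2, Per3, Cry2, Nr1d1, Nr1d2 and Dbp were followed in the left ventricle of the heart and in whole blood of rats given amiodarone or vehicle. They were the 10 genes of a list of core clock genes whose symbol or synonym names a non-control probe, and they were carried by 13 of the 41012 probes on the array (10 of 35279 gene names). Male Sprague-Dawley rats, 10 weeks old when dosing began and given as 11 weeks in the sample labels, received amiodarone by mouth at 300 mg/kg per day for 10 days, or the vehicle, methylcellulose at 1%. RNA was pooled from rats of a group, and 3 pools per group and tissue were hybridised, each on 1 single-colour Agilent array (12 arrays, 4 groups). The number of rats in a pool, and whether pools of the same number came from the same rats in heart and blood, are not given in the sources used here, so p-values measure the spread between pools. The hour of tissue collection is not given either. A shift of clock phase and a change of level at a fixed phase cannot be told apart in these samples.

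The clock is a transcriptional feedback loop. BMAL1, the product of Arntl, pairs with CLOCK or NPAS2 and activates genes through E-box sequences, among them the Per and Cry genes, whose proteins then repress the pair. The nuclear receptors REV-ERBα (Nr1d1) and REV-ERBβ (Nr1d2) repress Arntl through ROR elements, and DBP carries the rhythm to output genes through D-boxes. In rodent heart these transcripts cycle strongly over the day, with Nr1d1, Dbp and the Per genes reaching their peak in turn and Arntl peaking near the opposite time. Per1 and Per2 are also known to respond to glucocorticoids.

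Levels below are log2 signals of a probe minus the log2 of the 75th percentile of its array, so that 0 is a signal equal to that percentile. A probe was taken as measured on an array where the scanner software marked it well above background. Heart arrays had 21233 to 25032 such spots. Blood arrays of vehicle pools had 14459 to 15548 and those of amiodarone pools 20625 to 21245, with a 75th percentile of 24.0 ± 2.8 against 73.8 ± 15.6 signal units (mean ± SD, n = 3 each). The vehicle blood arrays were thus dimmer and measured fewer spots, which bears on every blood value below. All 12 cardiomyocyte marker genes were measured on every heart array, and in blood 7 of them were measured on no vehicle array and 7 on no amiodarone array, by any probe.

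In the left ventricle the clock genes moved in both directions. Per2 and Per3 rose and Arntl and Nr1d1 fell after amiodarone, in a limma fit of the 6 heart arrays with p-values adjusted by Benjamini-Hochberg over all 17463 features. Npas2, Per1, Cry2, Nr1d2 and Dbp did not pass the threshold of 0.05, and Clock was not measured on any of the 12 arrays. Thus 4 of the 9 members tested passed, 2 in each direction, where 8.57% of all features passed (4.33% higher and 4.23% lower). The median difference over the 9 members was -0.11, and over all features it was 0.02 (-0.11 without scaling). Without amiodarone pool 1, 6 members passed, and without vehicle pool 1, 2 or 3, 2 passed. Under scaling by the array median the calls over all features were 1040 higher and 576 lower, and without scaling 225 higher and 509 lower, beside 757 and 739 here.

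**Figure D1:**
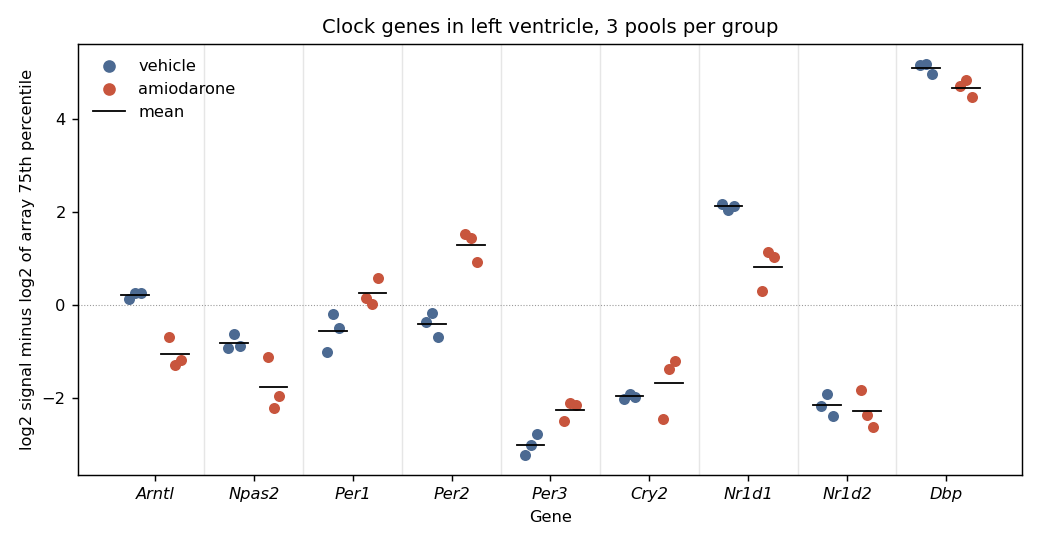
Scaled log2 signal (y axis) of the 9 clock genes measured in left ventricle (x axis), with 1 point per pool, 3 vehicle pools and 3 amiodarone pools for each gene, and a line at each mean. Per2 lies between -0.67 and -0.16 in vehicle pools and between 0.93 and 1.53 in amiodarone pools, and Arntl and Nr1d1 lie lower in all 3 amiodarone pools, while the points of Cry2 and Nr1d2 overlap.

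Arntl encodes the activator of the loop, and its loss alone abolishes behavioural rhythm in mice. Its levels in the vehicle hearts were 0.13, 0.27 and 0.26, and in the amiodarone hearts -0.68, -1.29 and -1.18. All 3 amiodarone pools lay below all 3 vehicle pools, as was so for 13.7% of all features. The difference was -1.27 ± 0.19 (SE, log2; 2.41-fold lower; limma adjusted p = 0.00863). Arntl kept its call when each of the 6 pools was left out in turn, and lost it on the slide with 4 arrays alone (-1.18, limma adjusted p = 0.101) and when no filter on dim probes was used (adjusted p = 0.0681). Its 60-base probe lies at chr1:171161969-171162028 of rn4, on the plus strand.

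The promoter of Arntl carries the letters of a ROR element core, TAGGTCA, directly before its start site, which is shown because Nr1d1, whose product binds such elements, fell in the same pools. The core begins 16 bases before the start, and 2.26% of 33469 rat start-site windows of 250 bases hold it on either strand. The stretch below is chr1:176766292-176766327 on the plus strand of GRCr8, from RefSeq, with the core in capitals. No other member's window held it.
Arntl promoter: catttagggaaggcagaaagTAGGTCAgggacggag

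Npas2 encodes the partner that can stand in for CLOCK. Its brighter probe, at chr9:38433884-38433943 of rn4, read -0.92, -0.61 and -0.87 in vehicle hearts and -1.10, -2.21 and -1.94 in amiodarone hearts. The groups did not overlap, but amiodarone pool 1 lay close to the vehicle pools, and the difference of -0.95 ± 0.28 (SE) did not pass (limma adjusted p = 0.0857). Without that pool it was -1.27 and passed (limma adjusted p = 0.0101). The other Npas2 probe was measured on 1 of 3 arrays in each heart group, and its levels are not used. Clock, the usual partner of BMAL1, is carried by 1 probe and has no level here.

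Per2 encodes a repressor of the BMAL1 pair and showed the largest rise among the members. Vehicle hearts read -0.36, -0.16 and -0.67, and amiodarone hearts read 1.53, 1.46 and 0.93. The lowest amiodarone pool stood above the highest vehicle pool, as in 18.9% of all features. The difference was 1.70 ± 0.21 (SE; 3.25-fold higher; limma adjusted p = 0.00457), and it passed under each of the 18 alternatives run, at 1.30 to 1.89. It was 1.75 on the slide with 4 heart arrays and 1.60 on the slide with 2. The Per2 probe lies at chr9:90645610-90645669 of rn4, on the minus strand.

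The Per2 promoter is shown since it was the one member window to hold a D-box, the element bound by DBP, beside an E-box variant, and since its gene showed the largest difference among the members in heart. The D-box TTATGTAA begins 192 bases before the start and the E-box variant CACGTT 62 bases before it. Of all windows, 0.932% hold a D-box (TTATGTAA or TTACGTAA) and 4.07% the variant, on either strand. The stretch is chr9:99497030-99497205 on the minus strand of GRCr8, from RefSeq, with both in capitals.
Per2 promoter: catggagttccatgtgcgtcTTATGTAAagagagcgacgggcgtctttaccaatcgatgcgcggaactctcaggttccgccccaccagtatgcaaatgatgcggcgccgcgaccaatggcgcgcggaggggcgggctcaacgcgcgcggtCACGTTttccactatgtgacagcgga

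Per1, the paralogue that responds fast to light and hormones, read -1.01, -0.19 and -0.49 in vehicle hearts and 0.15, 0.03 and 0.60 in amiodarone hearts. All amiodarone pools were higher, but vehicle pool 2 lay near them. The difference of 0.83 ± 0.25 (SE) did not pass (limma adjusted p = 0.0879). With normexp background correction it was 0.56 and passed (limma adjusted p = 0.037), while under the other 17 alternatives it did not. Its probe spans 585 bases of the genome at chr10:55867840-55868424 of rn4, longer than the probe itself.

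Per3, the third paralogue, is dispensable for the rhythm itself. Its probe 2, at chr5:168152851-168152910 of rn4 on the minus strand, read -3.22, -3.01 and -2.77 in vehicle hearts and -2.48, -2.10 and -2.13 in amiodarone hearts. The groups did not overlap, and the rise was 0.76 ± 0.18 (SE; 1.70-fold; limma adjusted p = 0.0418). It kept its direction under all 18 alternatives and its call in 7 of them. Leaving out any 1 pool other than amiodarone pool 1 took the call away, with limma adjusted p of up to 0.136.

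The 3 Per3 probes read differently, and probes 1 and 2 are shown since they share a run of 22 bases, in capitals. Probe 1 was measured on 0 of 3 vehicle hearts and on 1 of 3 amiodarone hearts, and probe 3 on no array. Probe 3 shares at most 7 consecutive bases with probe 2. The Per3 level therefore rests on 1 probe of 3.
Per3 probe 1: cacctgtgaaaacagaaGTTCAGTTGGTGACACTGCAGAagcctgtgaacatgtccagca
Per3 probe 2: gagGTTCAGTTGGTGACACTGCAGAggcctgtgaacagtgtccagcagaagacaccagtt

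Cry2 encodes a cryptochrome, which binds PER proteins and represses the BMAL1 pair. It read -2.01, -1.90 and -1.96 in vehicle hearts and -2.44, -1.36 and -1.19 in amiodarone hearts. Amiodarone pool 1 lay below all vehicle pools and the other two above them, so the groups overlapped, and the difference was 0.29 ± 0.31 (SE; limma adjusted p = 0.606). Without amiodarone pool 1 it was 0.67 and passed (limma adjusted p = 0.032). The probe lies at chr3:76802827-76802886 of rn4, on the minus strand.

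Nr1d1 encodes REV-ERBα, the repressor of Arntl. It read 2.19, 2.06 and 2.14 in vehicle hearts and 0.30, 1.14 and 1.05 in amiodarone hearts. Every amiodarone pool was lower, with pool 1 the furthest down. The difference was -1.30 ± 0.23 (SE; 2.46-fold lower; limma adjusted p = 0.0167). Its size held within both slides (-1.40 and -1.10), but the call was lost without any 1 of the vehicle pools (limma adjusted p = 0.0634 to 0.0664), on the slide with 4 arrays alone (0.101) and without a filter (0.1). The probe lies at chr10:87543165-87543519 of rn4, on the minus strand.

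Nr1d1 has 2 start sites in the RefSeq table, and both windows hold a form of the E-box, which is why they are shown. The variant CACGTT, read on the other strand as AACGTG, begins 174 bases before start site 1, and the E-box CACGTG, held by 5.59% of all windows, begins 191 bases before start site 2. The stretches are chr10:84231961-84232006 and chr10:84229620-84229665 on the minus strand of GRCr8, with these letters in capitals. Cry2 holds the variant too, 212 bases before its start. Besides Nr1d1, Cry2 and Per2, the windows of the other 7 members held neither form.
Nr1d1 start site 1: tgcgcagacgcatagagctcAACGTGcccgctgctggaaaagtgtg
Nr1d1 start site 2: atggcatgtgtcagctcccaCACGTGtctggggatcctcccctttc

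Nr1d2, which encodes REV-ERBβ, read -2.17, -1.90 and -2.38 in vehicle hearts and -1.82, -2.36 and -2.61 in amiodarone hearts. The groups overlapped, and the difference was -0.11 ± 0.23 (SE; limma adjusted p = 0.798). Dbp, the output factor, read 5.17, 5.20 and 4.97 in vehicle hearts and 4.72, 4.85 and 4.48 in amiodarone hearts. All amiodarone pools lay just below the vehicle pools, but the difference of -0.43 ± 0.15 (SE) did not pass (limma adjusted p = 0.135). The Dbp probe lies at chr1:96178020-96178079 of rn4.

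The groups did not overlap for 7 of the 9 members, where this held for 32.6% of all features. These were Arntl, Npas2, Nr1d1 and Dbp, lower in amiodarone pools, and Per1, Per2 and Per3, higher in them. Their direction was the same on both heart slides, which follows from the lack of overlap and adds nothing to it. Cry2 (0.05 and 0.76) and Nr1d2 (-0.05 and -0.23), whose groups overlapped, also kept their direction on both slides.

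Ratios between 2 members on the same array do not depend on scaling. The Per2 to Arntl ratio rose by 2.97 (log2) and the Per2 to Nr1d1 ratio by 3.00, and neither overlapped between the groups. The ratio of Per2 to Dbp rose by 2.13 and that of Dbp to Nr1d1 by 0.87, also without overlap. Nr1d1 to Arntl changed by -0.03 with overlapping groups, and amiodarone pool 1 had the lowest Nr1d1 and the highest Arntl of the treated pools. These values describe unequal changes, and no test was made on them.

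**Figure D2:**
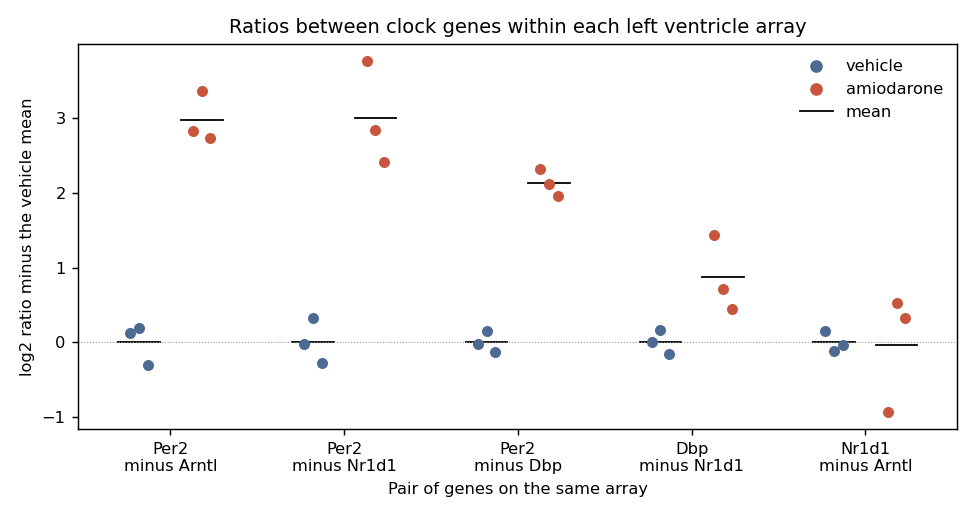
Log2 ratio of 2 clock genes on the same left ventricle array minus the mean of the vehicle pools (y axis), for 5 pairs of genes (x axis), with 1 point per pool and a line at each group mean. The Per2 to Arntl and Per2 to Nr1d1 ratios are higher in all 3 amiodarone pools, by 2.97 and 3.00 on average, and the Nr1d1 to Arntl ratio overlaps.

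Among 10 other transcription regulators of the clock on the array, 8 were tested in heart, and 1 passed. Cry1, the second cryptochrome, rose by 1.05 ± 0.17 (SE; limma adjusted p = 0.0128). It lost the call under 5 of 18 alternatives, among them leaving out vehicle pool 2 (adjusted p = 0.0546) or 3 (adjusted p = 0.0617). None of the list passed downward, with 3 lower at an unadjusted p under 0.05, and the list's median was 0.15.

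Kinases, ligases and cofactors that set the stability of clock proteins gave no call in limma, with 0 of 9 past the threshold and 2 at an unadjusted p under 0.05. These were Nampt, an enzyme of NAD synthesis under clock control (0.81 ± 0.29, SE, limma adjusted p = 0.14), and Usp2, a ubiquitin protease (0.33 ± 0.13, SE, limma adjusted p = 0.157). No call was made in this list under any of the 18 alternatives.

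Of 10 genes linked to the clock in heart or other tissues, 9 were tested in heart and 5 rose, against the 4.33% of all features that rose. Earlier results of these data were known when the list was chosen, so the count only describes it. The list's median was 1.08. Dgat2, which makes triglycerides, rose by 1.48 ± 0.15 and Klf15, a transcription factor that drives rhythmic potassium channel expression, by 1.13 ± 0.15 (SE; limma adjusted p = 0.00213 and 0.00551). Wee1, a cell cycle kinase with E-boxes in its promoter, rose by 1.08 ± 0.13, and Tspan4, a tetraspanin, by 1.08 ± 0.18 (limma adjusted p = 0.00418 and 0.0145). Lonrf3 entered the fit only through the amiodarone group, so no test is drawn on for it. It was measured on 0 of 3 vehicle and 3 of 3 amiodarone hearts and was at least 4.85-fold higher. That bound sets the amiodarone mean against the lowest signal well above background on each vehicle array, or the probe's own signal where that was higher. None fell, and none was lower at an unadjusted p under 0.05. Where every array had to measure the probe, which leaves out Lonrf3, 8 were tested and 4 rose. The count was 2 without scaling, without a filter, or on the slide with 4 arrays, and 7 without amiodarone pool 1.

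**Figure D3:**
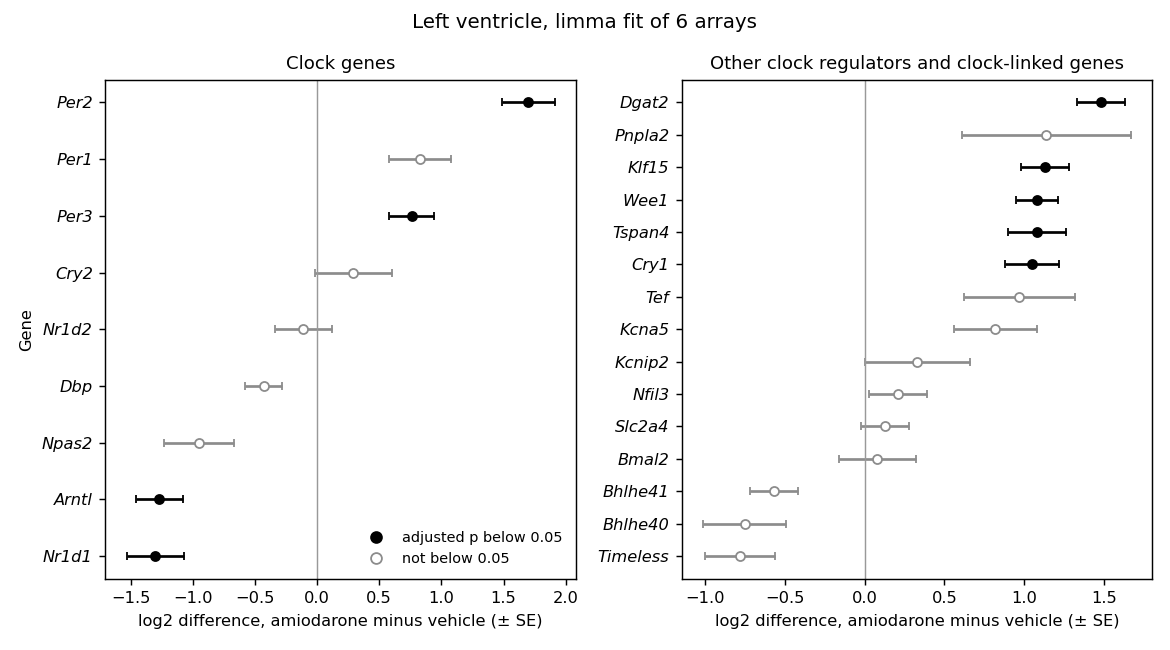
Difference between amiodarone and vehicle left ventricles (x axis, log2, bars ± SE from limma, 3 pools per group) for the clock genes (left) and for other clock regulators and clock-linked genes (right), leaving out Lonrf3, which no vehicle array measured, and 1 gene not reported here. Filled points are past an adjusted p of 0.05, and they are Per2, Per3, Arntl and Nr1d1 on the left and Dgat2, Klf15, Tspan4, Wee1 and Cry1 on the right.

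Glucocorticoid-responsive genes moved with Per2 in these hearts. Of 16 tested, 11 rose, where 4.33% of all features rose, and none fell. The list was chosen with earlier results of these data known, so this count is a description only. With an unadjusted p under 0.05 in limma, 1 was lower. The median was 1.03, and over all features it was 0.02. Fkbp5, a brake on the glucocorticoid receptor, rose by 2.43 ± 0.18 (SE), and Zbtb16, a transcription factor induced by the hormone, by 2.53 ± 0.23 (limma adjusted p = 0.000582 and 0.00116). Sult1a1 rose by 2.95 ± 0.13 (SE), Cebpb by 1.53 ± 0.20, Cebpd by 1.16 ± 0.15 and Errfi1 by 1.07 ± 0.18, each with a limma adjusted p of 0.0153 or less. The summed level of the list on the linear scale, in units of the 75th percentile, was 99.5 to 107 in vehicle pools and 209 to 220 in amiodarone pools. Fewer genes passed without vehicle pool 1, 2 or 3 (6, 5 and 5) or amiodarone pool 2 (7), without scaling (5), without a filter (4) and on the slide with 4 arrays (3). No member's promoter window held the full palindromic glucocorticoid element (0.012% of all windows) or the cyclic AMP element TGACGTCA (1.59%). Held by 4 and 531 of 33469 windows, both are rare, so their absence tells nothing about the members. The part of the glucocorticoid-responsive genes in the Per2 result was not tested.

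Markers of other cell types also moved in the heart, where 4.33% of all features rose and 4.23% fell. Fibroblast markers fell in 4 of 7 genes tested, with a summed level of 237 to 319 in vehicle and 130 to 176 in amiodarone pools. Those that fell were Col1a1 (-2.13), Col1a2 (-1.45), Col3a1 (-2.31) and Lum (-1.14). The other markers tested, Pdgfra (0.46), Dcn (0.39) and Tcf21 (-0.08), did not pass, so the list did not move as a whole. Red cell markers fell in 5 of 8, from 67.3 to 97.3 down to 17.6 to 20.8. Among these, Epb42 was measured on 0 of 3 amiodarone hearts. Of the neutrophil list 3 genes were tested, and S100a8 (2.12 ± 0.34, SE) and S100a9 (1.88 ± 0.29) rose while Lcn2 fell by 0.75 (limma adjusted p = 0.0118, 0.00998 and 0.0351), with sums of 1.80 to 1.94 in vehicle and 1.97 to 2.97 in amiodarone pools. One gene passed in each of 3 further lists, namely Mrc1 of macrophages (1.26 ± 0.27), Pf4 of platelets (0.57 ± 0.14) and Tie1 of endothelium, which fell by 1.05 (limma adjusted p = 0.0315, 0.045 and 0.0398). None of the 12 cardiomyocyte markers passed in limma, and none had an unadjusted p under 0.05, with sums of 6310 to 8560 and 7020 to 7540. In bulk tissue, fewer cells of a type and less RNA per cell cannot be told apart, and the part of these markers in the clock gene differences was not tested.

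In blood, Dbp was the one member measured on all arrays, and it rose after amiodarone. It read 1.63, 1.66 and 1.61 in vehicle blood and 2.65, 2.39 and 2.46 in amiodarone blood. The groups did not overlap, as was so for 73.8% of all features in blood. The rise was 0.86 ± 0.16 (SE; 1.82-fold; limma adjusted p = 0.00377), where 67.4% of 15651 features passed (40.3% higher) and the median of all features was 0.44. With normexp background correction it was 0.50 and did not pass (limma adjusted p = 0.185). It was 2.47 without scaling, where the median of all features was 2.04, and 0.56 in the deposited value table. Calls in blood were 6305 higher and 4244 lower, but 11745 and 307 without scaling and 3977 and 4398 in the value table.

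Arntl, Per1, Per2, Cry2 and Nr1d1 were measured on 0 of 3 vehicle and 3 of 3 amiodarone blood arrays. They entered the fit only through the amiodarone group, so their count supports nothing. In amiodarone blood Arntl read -1.38, -1.16 and -1.97, Per1 read -1.03, -1.14 and -1.10, and Per2 read -0.49, -1.53 and -1.08. Cry2 read -1.95, -1.56 and -1.59 there, and Nr1d1 -2.11, -2.25 and -2.09. Against the lowest level that the vehicle arrays could measure, Per2 was at least 1.28-fold higher and Per1 at least 1.23-fold, and no test is drawn on for them. For Arntl, Cry2 and Nr1d1 the amiodarone level was below the lowest level that the vehicle arrays measured, so no fold is given. With normexp correction none of the 6 blood members passed in limma, and 0 had an unadjusted p under 0.05. Clock, Npas2, Per3 and Nr1d2 were measured on no blood array.

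Blood cell markers moved with these values, in blood where 67.4% of all features passed (40.3% higher). All 9 red cell markers fell, with summed levels of 11200 to 18500 in vehicle and 2790 to 5120 in amiodarone blood. Neutrophil markers rose in 6 of 8 and fell in 1 (sums of 64.6 to 111 and 256 to 404), and T cell markers rose in 7 of 9 (254 to 312 and 352 to 383). Of the neutrophil markers Mpo was measured on no blood array and Mmp8 on none of the vehicle arrays. Cd4, among the T cell markers that rose, was measured on 0 of 3 vehicle arrays, and its groups overlapped. The part of these markers in the blood values of the clock genes was not tested. In blood 12 of 14 glucocorticoid-responsive genes rose and 1 fell (median 1.27), where 40.3% of all features rose. With normexp 4 rose (median 0.52), and without scaling 14 (median 2.87). Where every array had to measure the probe, 8 were tested, and 7 rose and 1 fell (median 1.07). The others of the 14 entered the fit only through the amiodarone group, so the count of 12 is not drawn on. Cebpd rose by 2.12 ± 0.20 (SE), Fkbp5 by 2.04 ± 0.25 and Sgk1 by 1.58 ± 0.18, each with a limma adjusted p of 0.00105 or less. Of these 3, Sgk1 did not pass with normexp (limma adjusted p = 0.0708). Dusp1, a phosphatase, was measured on 2 of 3 vehicle arrays and entered the fit only through the amiodarone group. It read higher by 3.01 in amiodarone blood, and no test is drawn on for it. Cdkn1a and Zbtb16 were measured on 0 of 3 vehicle blood arrays and were at least 4.56-fold and 1.01-fold higher.

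Dbp was the member for which the drug effect could be compared between tissues with all groups measured. Its effect in blood minus that in heart was 1.30 ± 0.22 (SE; limma fit of 12 arrays, adjusted p = 0.00128), where 46.5% of 20028 features passed. The effect was positive in blood and, without passing the test, negative in heart. With normexp correction the difference was 0.94 and did not pass (limma adjusted p = 0.0505). For the other members vehicle blood was below background, and no comparison of the effects is made.

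Set across the 4 groups, Dbp ran from vehicle heart (5.11 ± 0.13, SD, n = 3) through amiodarone heart (4.68 ± 0.19) and amiodarone blood (2.50 ± 0.13) to vehicle blood (1.63 ± 0.03), with no overlap between neighbours. In the vehicle pools it was 3.48 ± 0.16 (SE) higher in heart, or 11.2-fold (limma adjusted p = 1.7e-09), where 81.1% of features passed. Tissue, slide and extraction kit (RNeasy for heart, PAXgene for blood) cannot be told apart. Against unmeasured vehicle blood, vehicle hearts were at least 11.5-fold higher for Nr1d1, 3.05-fold for Arntl, 1.99-fold for Per2, 1.78-fold for Per1 and 1.51-fold for Npas2.

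Nr1d1 followed the order vehicle heart (2.13 ± 0.07, SD), amiodarone heart (0.83 ± 0.46) and amiodarone blood (-2.15 ± 0.08), again without overlap. Arntl had the same order, but amiodarone heart (-1.05 ± 0.32, SD) and amiodarone blood (-1.50 ± 0.42) overlapped. Per2 was highest in amiodarone heart (1.30 ± 0.33, SD), and vehicle heart (-0.40 ± 0.26) overlapped with amiodarone blood (-1.03 ± 0.52). Per1 ran from amiodarone heart (0.26 ± 0.30, SD) to vehicle heart (-0.56 ± 0.41) and amiodarone blood (-1.09 ± 0.05) without overlap. Cry2 overlapped among its 3 measured groups. Per3, Nr1d2 and Npas2 were measured in heart only, and amiodarone hearts were at least 1.59-fold, 1.57-fold and 2.23-fold above amiodarone blood.

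**Figure D4:**
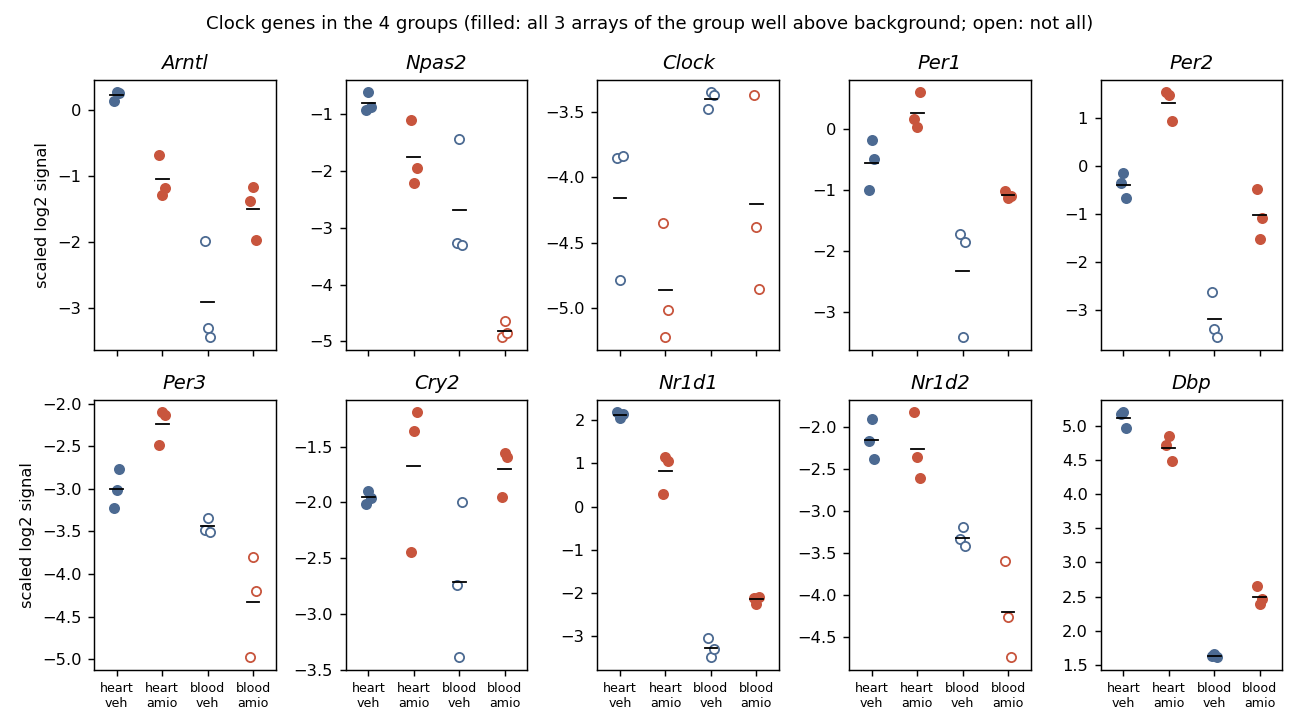
Scaled log2 signal (y axis, own range per gene) of each clock gene in vehicle and amiodarone heart and blood (x axis), with 1 point per pool, 3 per group, and a line at each mean. Filled points mark groups with all 3 arrays well above background and open points groups without, and Dbp alone is filled in all 4 groups, while Clock is open in all 4.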

How the data were processed

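Per the file headers, the deposited scanner files hold the processed intensity of each spot from Agilent Feature Extraction 9.5.1.1, background-subtracted and detrended, with no normalization between arrays and surrogates for dim spots. They also hold mean and background intensity and other columns of flags, per the file headers. The deposited value table of the authors holds normalized intensity, for which heart and blood were normalized separately, per the series' design text, and it served as an alternative.

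Values were taken to log2, outlier spots left out, spots of a probe averaged, and the log2 of each array's 75th percentile subtracted. Of 41012 probes, 16336 were named by accession, 3735 by symbol and 1099 by synonym, and the rest kept the file's name. A probe entered a tissue's fit if well above background on all 3 arrays of 1 group, and a gene kept its brightest such probe. Each tissue was fitted with limma 3.58.1 in R 4.3.3 (data.table version 1.17.8), and both together for contrasts between tissues, with two-sided tests adjusted by Benjamini-Hochberg at 0.05. The fit was tested on simulated data. Where no array of a group measured a probe, a bound ("at least") is given.

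The 10 members were all named. Of other lists, up to 6 genes past the threshold with the smallest p were named per tissue, or 2 where none passed (1 gene is not reported here), plus the 4 genes most alike and the 4 most opposite to Arntl. Members and lists were chosen with earlier results of these data known, so their counts beside the share of all features are descriptions. Probe positions are on rn4, per the file headers, and promoters come from the RefSeq GRCr8 table, which had all 10 members. Motifs were searched on both strands of the 250 bases before each start. Alternatives changed the background, scaling, filter, probe rule, blocks and pools. The number of arrays limits precision.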

Additional observations from a re-analysis of the deposited data

Results flagged for a closer look

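The amiodarone effect on Dbp, measured in all 4 groups, differed between blood and heart by the test of the difference itself in the limma fit of 12 arrays, where 46.5% of all features passed. The effect in blood minus that in heart was 1.30 (log2). The same fit gave 2.67 for Arntl and 2.43 for Nr1d1, but no vehicle blood array measured either, so these values rest on signals below background and carry no comparison between tissues. The fit also gave -1.65 for Per3, which no blood array measured. With normexp correction the difference for Dbp was 0.94 (limma adjusted p = 0.0505). Vehicle blood arrays were dimmer, and the part of this in the values was not tested.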

How the results depend on the processing

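Per2 kept its direction and call in heart under all 18 alternatives, Arntl under 16, Nr1d1 under 13 and Per3 under 7, and Nr1d2, not called, turned sign without vehicle pool 2 (0.01) and without amiodarone pool 3 (0.06), in a range of -0.33 to 0.06 with a pool left out. The calls in heart over all features, 1496, became 734 without scaling, 292 without a filter on dim probes, 269 on the slide with 4 arrays and 526 to 1385 with a pool left out. Of the members 1 was called without a filter and 1 on that slide, and 2 to 6 with a pool left out. In blood 10549 calls became 1423 with normexp and 24653 without a filter, and the 6 member calls became 0 with normexp, 1 where every array had to measure the probe, and 3 to 5 with a pool left out. Without scaling Bmal2 (0.02), Csnk1d (0.51) and Wee1 (0.82) turned sign in blood. For blood effect minus heart effect, 9321 calls became 1860 with normexp, 5834 in the value table, 18871 without a filter and 5242 under the strict filter, where 1 member was called. There normexp turned Per1 (-0.45), Per2 (-1.14) and Cry2 (-0.09), and leaving out vehicle blood pool 2 turned Per1 (-0.12, in a range of -0.12 to 0.73 with a pool left out). No vehicle blood array measured Per1, Per2 or Cry2, so these values carry no comparison between tissues. The split of 4354 higher and 4967 lower was 12603 and 197 without scaling, 5148 and 3616 with quantile scaling and 5167 and 3894 with median scaling. For heart minus blood in vehicle pools, 16244 calls became 29936 without a filter and 7532 under the strict filter, with 1 member, and normexp turned Npas2 (-0.04), Per3 (-0.80), Cry2 (-0.62) and Nr1d2 (-0.60). Unscaled, its split of 8451 higher and 7793 lower was 14544 and 2951. Apart from filters, which change how many features are tested, and the smaller sets of pools, the cause was not tested.

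Same-number correlations of deviations were -0.17, -0.24 and 0.32 in heart and 0.09, 0.17 and 0.31 in blood. Between different numbers they ran from -0.19 to 0.35 in heart and from -0.3 to 0.17 in blood. With 3 pools per group these values cannot settle whether the replicate numbers pair the pools. With a replicate block 696 features and 3 members were called in heart, with Per3 lost (limma adjusted p = 0.0597), and 10711 and 6 in blood.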

Other observations

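Likeness to Arntl was ranked over features named by accession, symbol or synonym, without those that kept the file's name. Across the 6 heart arrays, the genes whose levels ran most like Arntl were Traf3, a signalling adaptor of immune receptors (r = 0.9997), Vegfc, a lymphatic growth factor (0.9938), Cmtm3 (0.9931) and Col3a1, a fibrillar collagen (0.9929). Those that ran most opposite were Nat8b (-0.9983), Gramd1b (-0.9979), Pnpla7 (-0.9969) and Nr1h3, the sterol receptor LXRα (-0.9968). Of the clock genes, Npas2 (0.94), Dbp (0.81) and Nr1d1 (0.77) ran with Arntl, and Per3 (-0.93), Per2 (-0.89) and Per1 (-0.76) against it. These are Pearson correlations over 6 arrays that fall into both treatment groups, given as a description.

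In blood, other clock regulators passed in both directions, but with normexp background correction none of the 7 regulators or 8 kinases, ligases and cofactors tested passed in limma, with 2 of each list at an unadjusted p under 0.05. Nfil3, the repressor at D-boxes, rose by 1.63 ± 0.20 (SE; limma adjusted p = 0.00103). Cry1 was measured on 2 of 3 vehicle arrays and entered the fit only through the amiodarone group. It read higher by 0.85 in amiodarone blood (0.63 to 1.15 with a pool left out), and no test is drawn on for it. Bmal2 fell by 1.58 and Bhlhe41, a repressor at E-boxes, by 1.77 (limma adjusted p = 0.00303 and 0.00312). With the mean of its probes Bhlhe41 was at -0.51, and unscaled it did not pass (-0.17). Csnk1d, a kinase of PER proteins, fell by 1.09, while Gsk3b rose by 1.25 ± 0.30 and Fbxw11 by 0.95 ± 0.19 (limma adjusted p = 0.00291, 0.00834 and 0.00424). Usp2 and Nampt were measured on 0 of 3 vehicle blood arrays, and Nampt was at least 1.59-fold higher in amiodarone blood, while Usp2 has no fold. Slc2a4, a glucose transporter, rose by 1.18 ± 0.19 and Pnpla2, a lipase, by 1.13 ± 0.23 (SE; limma adjusted p = 0.00221 and 0.00485), and neither passed with normexp. Dgat2 rose by 3.04 ± 0.30, and Wee1 and Tspan4, which had risen in heart, fell in blood by 0.78 and 1.81 (limma adjusted p = 0.000922, 0.0195 and 0.00422). With normexp Dgat2 passed and Wee1 and Tspan4 did not, and Wee1 also lost its call with median scaling (-0.48) and without amiodarone pool 1 or 3 (-0.57 and -0.80). The difference between tissues was not tested for these genes, and 67.4% of all features passed in blood.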
